A study of Mus musculus with 51 samples.

Results

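In the epiblast of E6.5 mouse embryos, 4666 of 33329 autosomal H3K4me3 peaks (14%) overlapped no H3K27me3 peak of the epiblast in either wild-type cross, but lay by at least 1 bp under an H3K27me3 peak of the extra-embryonic ectoderm (ExE) in both crosses. These 4666 epiblast H3K4me3 peaks with ExE-only H3K27me3 are the members described here. They were chosen by the deposited wild-type peak calls for H3K4me3 and H3K27me3, so their wild-type H3K27me3 levels are a description and are not tested. Of the other epiblast H3K4me3 peaks, 16403 had no H3K27me3 peak in any list, 8689 had one in both tissues, 2523 had one in the ExE of only 1 cross, and 1048 had other combinations.

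The study assayed H3K4me3, H3K27me3 and H3K36me3 by ultra low-input native ChIP-seq in manually separated epiblast and ExE at embryonic day 6.5. Wild-type embryos came from reciprocal crosses of C57BL6/Babr (B6) and CAST/EiJ (CAST) mice, written B6/CAST and CAST/B6 with the mother first. The matDKO/CAST embryos came from B6/129 mothers, Dnmt3a floxed/floxed and Dnmt3b floxed/floxed with a Zp3-driven Cre, which acts in the oocyte, and CAST fathers. These embryos were Dnmt3a -/+ and Dnmt3b -/+ by maternal inheritance, and their mothers also differed from the wild-type B6 mothers in the 129 background. Each of the 18 combinations of cross, tissue and mark had 2 libraries, each from a pool of 4 epiblasts or 8 ExE of about 2500 cells. The chromatin of a pool was split among the antibodies and the input, so libraries of different marks can share their cells. P-values therefore measure the spread between pools, and within a pool fewer cells carrying a mark and less of the mark per cell cannot be told apart.

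H3K4me3 is laid down at active and poised promoters, and at a lower level at enhancers. H3K27me3, written by Polycomb repressive complex 2, covers silent developmental genes, in ExE often as broad domains, and its coincidence with H3K4me3 at a promoter is called bivalency. H3K36me3 is deposited along gene bodies behind elongating RNA polymerase II and is used here as a readout of transcription of the gene that starts in a peak.

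The libraries held 4.01 to 17.9 M mapped reads for H3K4me3, 3.68 to 22.9 M for H3K27me3, 2.09 to 12.6 M for H3K36me3 and 7.17 to 90.6 M for the 15 inputs. By H3K4me3 at gene starts, 5 of 6 epiblast markers were higher in all epiblast libraries than in all ExE libraries. Of 6 ExE markers, 3 (Cdx2, Tfap2c and Bmp4) were higher in all ExE libraries, Esrrb was higher in all epiblast libraries, and Elf5 was at 0.724 RPKM or less in every library. Of 12 visceral endoderm markers, 4 were higher in all ExE libraries and 1 in all epiblast libraries, and their summed H3K4me3 ranged from 51.9 to 88.0 RPKM in epiblast and from 61.2 to 110.9 RPKM in ExE. The part of visceral endoderm cells in the tissue differences was not tested. None of 5 decidua markers and none of 3 mesoderm markers separated the tissues.

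The word promoter held for only some of the members. A protein-coding 5′ end lay in 983 of the 4666 (21.07%), of which 110 held 2 or more such starts, and a start of another transcript alone in 546. A further 1387 lay inside a gene without a start and 1750 outside genes. In all, 1118 protein-coding genes started in a member. An H3K4me3 peak of the ExE lay over 2405 members (51.54%) in both crosses, over 1035 in 1 cross, and over 1226 (26.28%) in neither cross, against 20.51% in neither cross for epiblast peaks with no H3K27me3.

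The promoters of the 6 genes on which the results below turn are shown first, as 300 bases of GRCm38.p6 from RefSeq, 250 before the transcript start and 50 from it, with each CpG in capitals. They span CpG-rich and CpG-poor members, and where a gene had several RefSeq starts in the member the most upstream is given. The Fgf5 window is chr5:98253934-98254233 on the plus strand, Igfbp2 chr1:72824230-72824529 on the plus strand, Kdm2b chr5:122989050-122989349 on the minus strand, Dbn1 chr13:55488027-55488326 on the minus strand, Ptn chr6:36810130-36810429 on the minus strand and Kcnq1ot1 chr7:143296498-143296797 on the minus strand.
Fgf5: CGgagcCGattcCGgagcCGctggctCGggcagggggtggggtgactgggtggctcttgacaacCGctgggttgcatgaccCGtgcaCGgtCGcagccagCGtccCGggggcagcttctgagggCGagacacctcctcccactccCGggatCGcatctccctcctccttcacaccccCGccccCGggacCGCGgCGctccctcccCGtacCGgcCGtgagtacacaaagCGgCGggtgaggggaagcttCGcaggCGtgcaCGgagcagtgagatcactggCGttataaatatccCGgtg
Igfbp2: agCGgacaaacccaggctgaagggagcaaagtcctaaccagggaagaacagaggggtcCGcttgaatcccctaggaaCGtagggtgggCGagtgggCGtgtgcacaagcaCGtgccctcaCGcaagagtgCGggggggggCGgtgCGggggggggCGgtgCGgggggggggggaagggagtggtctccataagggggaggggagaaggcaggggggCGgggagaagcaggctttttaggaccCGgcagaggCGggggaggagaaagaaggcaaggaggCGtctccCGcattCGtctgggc
Kdm2b: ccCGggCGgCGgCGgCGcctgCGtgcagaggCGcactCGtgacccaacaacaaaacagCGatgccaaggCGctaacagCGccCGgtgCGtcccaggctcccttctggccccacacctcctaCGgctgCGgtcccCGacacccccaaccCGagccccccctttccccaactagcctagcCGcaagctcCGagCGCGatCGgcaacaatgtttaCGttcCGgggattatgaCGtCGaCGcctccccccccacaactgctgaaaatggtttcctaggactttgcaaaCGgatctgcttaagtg
Dbn1: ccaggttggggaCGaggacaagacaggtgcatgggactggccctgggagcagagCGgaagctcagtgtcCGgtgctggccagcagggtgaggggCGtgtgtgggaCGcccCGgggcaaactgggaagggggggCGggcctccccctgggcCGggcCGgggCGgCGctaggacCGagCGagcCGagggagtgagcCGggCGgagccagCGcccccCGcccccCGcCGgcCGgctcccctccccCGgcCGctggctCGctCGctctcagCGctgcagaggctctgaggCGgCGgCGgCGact
Ptn: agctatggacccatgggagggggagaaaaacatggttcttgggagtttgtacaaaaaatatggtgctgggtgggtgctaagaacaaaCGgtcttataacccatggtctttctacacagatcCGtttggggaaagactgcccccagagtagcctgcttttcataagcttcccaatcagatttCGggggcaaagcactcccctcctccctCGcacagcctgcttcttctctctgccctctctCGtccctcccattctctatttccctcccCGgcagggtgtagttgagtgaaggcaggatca
Kcnq1ot1: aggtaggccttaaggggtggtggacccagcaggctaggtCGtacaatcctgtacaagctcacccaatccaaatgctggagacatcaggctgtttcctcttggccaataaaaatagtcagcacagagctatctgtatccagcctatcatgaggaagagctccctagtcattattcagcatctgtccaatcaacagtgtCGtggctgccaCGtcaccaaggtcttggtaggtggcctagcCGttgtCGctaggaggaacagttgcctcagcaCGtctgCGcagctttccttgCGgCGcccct
These windows held 29 CpG for Fgf5, 18 for Igfbp2, 28 for Kdm2b, 30 for Dbn1, 6 for Ptn and 9 for Kcnq1ot1.

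The median ratio of observed to expected CpG was 0.280 over the members, close to the 0.286 over peaks with no H3K27me3 and the 0.287 over those with ExE H3K27me3 in 1 cross, and below the 0.381 over those with H3K27me3 in both tissues. It was 0.380 over the 983 members with a protein-coding start, against 0.443 for peaks with a start and no H3K27me3 and 0.436 for those with H3K27me3 in both tissues. A usual bound for CpG islands, 0.6, was exceeded by 1.63% of members, 3.28% of peaks with no H3K27me3, 2.42% of those with ExE H3K27me3 in 1 cross and 7.78% of those with H3K27me3 in both tissues. In RefSeq, 1497 promoters of 1254 genes started in a member (806 of the 1118 member genes matched), with a median of 15 CpG per 300 bases, against 20 where H3K27me3 was absent, 18 where it was present in both tissues, and 7 over all 31365 promoters. On either strand, the GC-box letters GGGCGG occurred in 49.6% of member promoters, fewer than the 61.5% of promoters without H3K27me3, the 60.0% with H3K27me3 in both tissues and the 59.1% with ExE H3K27me3 in 1 cross. Their share was 35.95% of all promoters, which include 14128 with no epiblast H3K4me3 peak (6.43%). TATAAA occurred in 7.55% of member promoters, and in 6.49%, 7.45% and 7.27% of those classes in the same order, against 13.6% of all promoters and 21.6% of those with no epiblast peak. The differences between these shares were not tested. The letters CCGGAAG, an ETS-type motif, occurred in 10.96% of member promoters, 22.0% of promoters without H3K27me3, 6.83% of those with H3K27me3 in both tissues and 9.0% of all promoters. CCAAT was found in 35.0% of member promoters and 37.3% of all, CACGTG in 9.02% and 7.14%, TGACGTCA in 2.47% and 1.83%, and ATGCAAAT in 1.60% and 1.75%. The motifs share no letters that make them overlap by construction, and a match is only an occurrence of these letters in the window.

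The H3K27me3 that set the members apart was low and broad. The median ExE H3K27me3 peak over a member was 23000 bp long in B6/CAST (500 to 669500 bp) and 39500 bp in CAST/B6 (1000 to 797500 bp), and 3047 members (65.3%) lay wholly inside such a peak in both crosses. The nearest epiblast H3K27me3 peak was a median of 19500 bp away, within 5000 bp for 1188 members and at least 100000 bp away for 806. Over the members, library medians of H3K27me3 were 0.453 to 0.573 RPKM in wild-type epiblast and 0.758 to 0.862 RPKM in wild-type ExE, with wild-type inputs at 0.465 to 0.537 RPKM. In wild-type epiblast, the medians were 0.187 to 0.257 RPKM over peaks with no H3K27me3 and 1.33 to 1.88 RPKM over peaks with H3K27me3 in both tissues, so the members lay between these classes. The wild-type difference, which the rule used, had a median of 0.38 on the log2(RPKM + 0.5) scale (quartiles 0.20 and 0.56). In 2103 members all 4 ExE values exceeded all 4 epiblast values, whereas 343 had a difference below 0 despite their peak calls. The rule favours such a separation, and the share of all peaks that separated in this way was not computed. The bound of the rule was gradual. Members with an epiblast H3K27me3 peak within 1000 bp (n = 529) had medians of 0.499 RPKM in epiblast and 0.714 RPKM in ExE, and peaks left out for an overlap of up to 1000 bp (n = 856) had 0.676 and 0.877 RPKM.

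**Figure D1:**
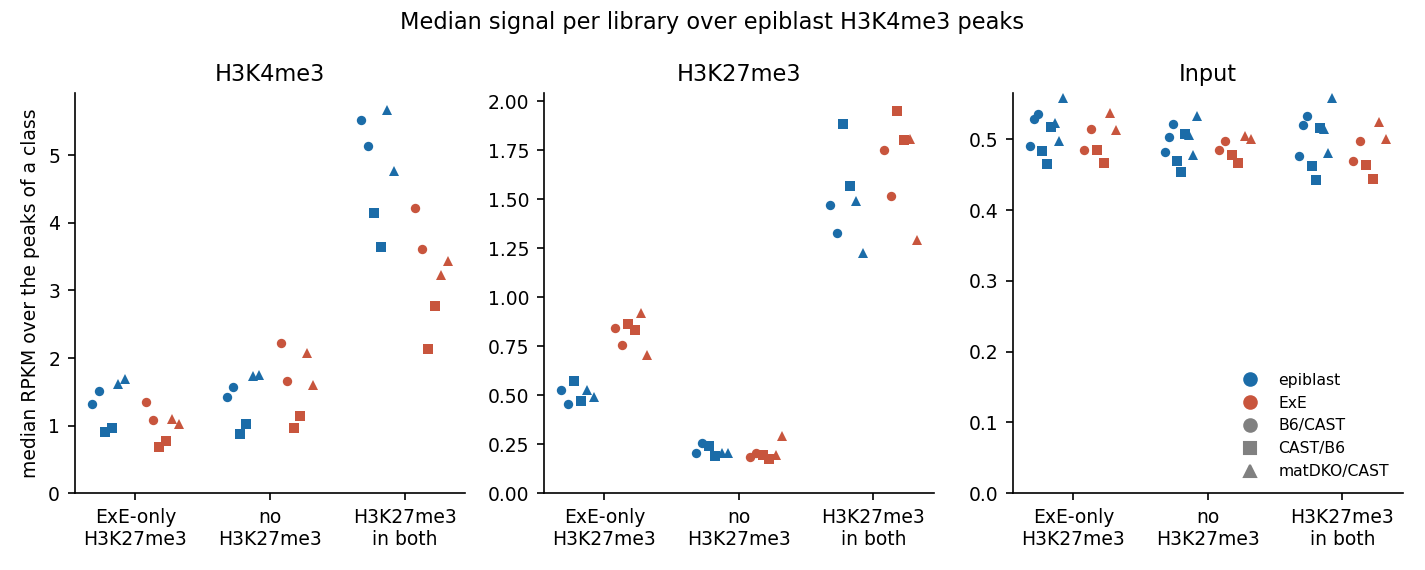
Median H3K4me3, H3K27me3 and input signal (RPKM, y axes from 0) over 3 classes of epiblast H3K4me3 peaks (x axes), with 1 point per library, colour for tissue and marker shape for cross. Over the ExE-only class, H3K27me3 medians were 0.453 to 0.573 RPKM in wild-type epiblast and 0.758 to 0.862 RPKM in wild-type ExE, between the levels of the other classes, while the inputs did not separate the classes.

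The matDKO/CAST libraries played no part in choosing the members, and asked whether ExE-only H3K27me3 was also seen in embryos from oocytes without Dnmt3a and Dnmt3b. Their library medians over members were 0.490 to 0.528 RPKM in epiblast and 0.703 to 0.919 RPKM in ExE, and did not overlap. By limma, H3K27me3 was higher in matDKO/CAST ExE at 676 members (14.49%, against 4.87% of all 33329 peaks) and lower at 6 (2.36% of all peaks were lower). The contrast used the matDKO/CAST libraries only. Its spread was estimated from all 12 H3K27me3 libraries, among them the wild-type ones whose peak calls chose the members. The median difference was 0.36 over members and 0.12 over all peaks. The count of 676 moved with single libraries and with the fit. It was 100 without matDKO/CAST ExE replicate 2 and 225 without epiblast replicate 2. Fitted alone, without any wild-type library, the matDKO/CAST libraries gave 258, for which no share of all peaks was computed. The count was 399 with equal library medians (2.478% of all peaks passed), 400 by edgeR on the recovered reads (2.745%) and 1369 with the replicate number as a block (14.04%). The call was more frequent under long wild-type ExE H3K27me3 peaks, which the rule used, at 327 of 1542 members (21.21%) beneath peaks over 38000 bp and 155 of 1568 (9.885%) beneath peaks of up to 14000 bp, and at members with no ExE H3K4me3 peak (19.41%) than at those with one in both crosses (11.6%). Up to 12 members of 1 region were counted singly. All epiblast peaks were not split in the same way, so the pattern cannot be assigned to the members. The differences between these shares were not tested.

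H3K4me3 was compared between the tissues at each member. Every peak tested had been called in wild-type epiblast, from libraries that are also in the test, which tilts all of them toward that tissue. The wild-type H3K4me3 p-values of single members given below carry this tilt. The matDKO/CAST libraries were not used for those peak calls. In the wild type, 1516 of 4666 members (32.49%) were lower in ExE by limma, against 25.9% of all peaks, and 405 (8.68%) were higher, against 11.2%. The differences between the shares of members and of all peaks were not tested. The rule let in peaks called in epiblast alone, and these carry much of the count. With no ExE H3K4me3 peak in either cross, 661 of 1226 members (53.92%) were lower and 0 higher, against 50.54% and 0.03407% of all such peaks. With an ExE H3K4me3 peak in both crosses, 573 of 2405 members (23.83%) were lower and 350 (14.55%) higher, against 19.62% and 14.98% of all such peaks. Those peak calls came from the same wild-type libraries, so these shares are a description. The median difference was -0.25 over members (quartiles -0.58 and 0.05) and -0.13 over all peaks. Scaling moved the balance, with 1160 lower and 694 higher after quantile normalization (24.86% and 14.87%, against 20.98% and 20.8% of all peaks). Equal library medians gave 1336 and 460 (28.63% and 9.859%, against 23.27% and 12.68%). By edgeR on the recovered reads, 1199 and 581 passed (25.7% and 12.45%, against 22.01% and 17.52%). The higher count was 259 without B6/CAST ExE replicate 1. In matDKO/CAST, 1565 members (33.54%) were lower, against 24.9% of all peaks, and 159 (3.408%) higher, against 5.36%, with medians of -0.41 over members and -0.18 over all peaks. These counts became 999 and 295 with equal library medians, where 16.48% and 9.289% of all peaks passed. They were 691 and 386 after quantile normalization (13.83% and 12.69% of all peaks passed) and 903 and 452 by edgeR (15.3% and 17.24%). The higher count in matDKO/CAST was 98 without epiblast replicate 2 and 104 without ExE replicate 3. Between the genotypes, 1138 members (24.39%) were lower in both, against 19.01% of all peaks, 136 (2.915%) were higher in both, against 4.711%, and 1 was called in opposite directions. The tissue difference itself differed between matDKO/CAST and wild type at 2 members (0.042% of all peaks were called, 356 members at an unadjusted p under 0.05), in a limma contrast added after the data were seen, and edgeR called 0.

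Members at gene starts carried the stronger H3K4me3 signal. Library medians over the 983 members with a protein-coding start were 8.03 to 11.3 RPKM in wild-type epiblast and 6.91 to 8.98 RPKM in wild-type ExE, against 0.683 to 1.27 and 0.531 to 0.918 RPKM over members without a transcript start. Of the 983, 237 (24.11%) were lower in wild-type ExE and 31 (3.154%) were higher. The same shares were 3.219% and 4.057% of 5250 start-bearing peaks with no H3K27me3, 8.912% and 3.474% of 662 with ExE H3K27me3 in 1 cross, and 41.5% and 2.777% of 4501 with H3K27me3 in both tissues. In matDKO/CAST, 17.5% of the 983 were lower and 1.017% higher. The other classes had 1.981% and 2.59%, 5.74% and 2.115%, and 31.75% and 0.7998% in that order. For H3K27me3 in matDKO/CAST, 9.969% of the 983 were higher in ExE, against 0.9714%, 1.813% and 3.31% of the other classes in that order. Away from protein-coding starts, 31.5% of members with only another transcript start, 35.98% of those inside genes and 34.74% of those outside genes were lower in wild-type ExE. In the same order, 12.27%, 9.229% and 10.23% were higher. Of all peaks, wherever they lay, 25.9% were lower and 11.2% higher, and their shares by place were not computed.

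**Figure D2:**
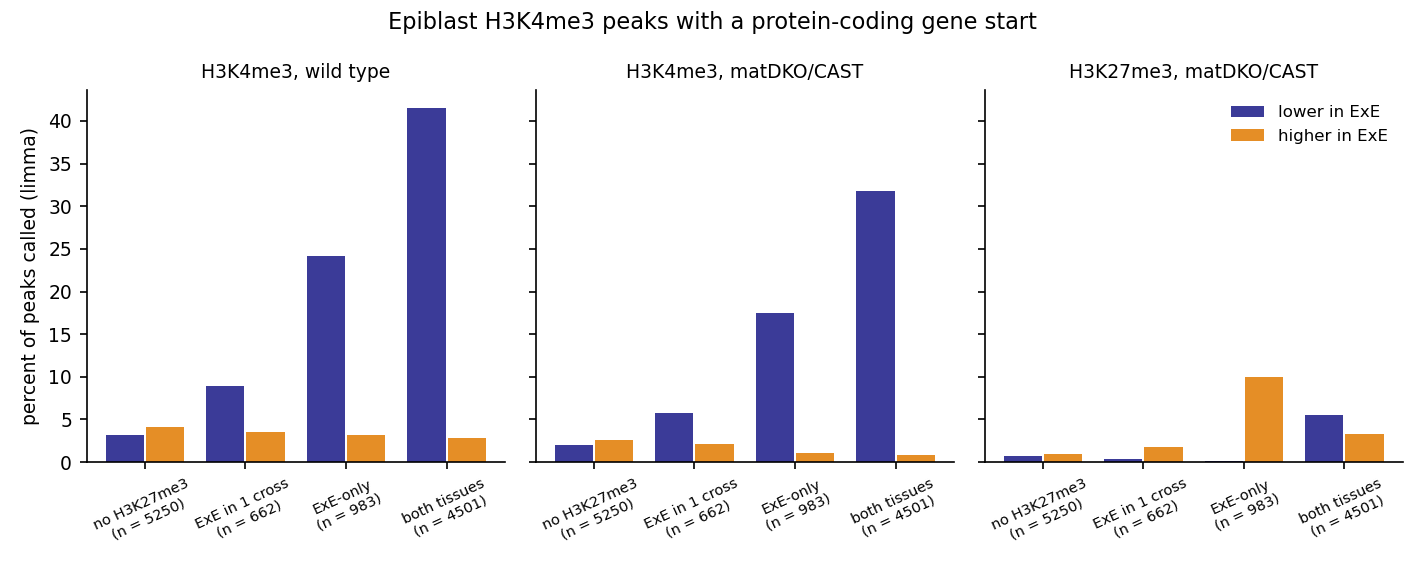
Percent of epiblast H3K4me3 peaks with a protein-coding start (y axis) that limma called lower or higher in ExE, for 4 classes by H3K27me3 peaks (x axis, with n) and 3 comparisons (panels). The ExE-only class had 24.11% lower for wild-type H3K4me3, between 8.912% for ExE H3K27me3 in 1 cross and 41.5% for H3K27me3 in both tissues, and the highest share for matDKO/CAST H3K27me3 at 9.969%.

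The 2 marks could be read side by side at each member. In all, 321 members (6.88%) were both lower in H3K4me3 in wild-type ExE and higher in H3K27me3 in matDKO/CAST ExE, against 2.178% of all peaks, and 33 (0.7072%) were higher in both, against 0.306%. Of the 676 members with higher H3K27me3, 47.49% were lower in H3K4me3, and of the 1622 such peaks among all, 44.76% were. Across members, Spearman's rho between the H3K27me3 and H3K4me3 differences in matDKO/CAST was -0.24, and -0.41 for those at protein-coding starts, against -0.21 over all peaks and -0.17 over all 11969 peaks with a protein-coding start. These are descriptions across regions, and the libraries of the marks share their chromatin pools.

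Among signalling genes, Fgf5, an FGF ligand and marker of the primed epiblast, started in a member at chr5:98252001-98262500. Its H3K4me3 was 13.9, 12, 15.0 and 14.8 RPKM in wild-type epiblast and 5.29, 5.53, 2.59 and 5.04 RPKM in wild-type ExE. The tissues did not overlap, and the log2 difference was -1.54 (SE 0.17, limma adjusted p = 6.09e-12). In matDKO/CAST the values were 14.6 and 9.96 RPKM in epiblast and 4.34 and 5.43 RPKM in ExE (-1.23, limma adjusted p = 4.89e-05). H3K27me3 was 0.374, 0.372, 0.404 and 0.370 RPKM in wild-type epiblast and 1.19, 0.938, 1.40 and 0.760 RPKM in ExE. In matDKO/CAST H3K27me3 was 0.348 and 0.415 RPKM in epiblast and 1.13 and 0.822 RPKM in ExE, a difference of 0.74 (limma adjusted p = 0.0397) that missed the threshold without epiblast replicate 1 (0.0901), epiblast replicate 2 (0.087) or ExE replicate 2 (0.194). Of 34 epiblast and pluripotency genes and of 18 FGF signalling genes with an epiblast peak, Fgf5 alone was a member, where 1118 of all 14131 genes with an epiblast peak at the start (7.912%) were. Of the 34, 19 had H3K27me3 in both tissues and 7 had none.

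Igfbp2, a secreted binding protein of insulin-like growth factors, separated the tissues in both marks (chr1:72822501-72829000). H3K4me3 was 19.2, 17.2, 19.9 and 21.2 RPKM in wild-type epiblast and 6.63, 6.39, 3.68 and 6.46 RPKM in ExE (-1.69, limma adjusted p = 3.57e-13). H3K27me3 was 0.649, 0.271, 0.493 and 0.454 RPKM in wild-type epiblast against 1.88, 1.38, 1.72 and 1.48 RPKM in ExE. In matDKO/CAST, H3K27me3 was 0.354 and 0.712 RPKM in epiblast and 2.66 and 1.50 RPKM in ExE, again without overlap. That difference of 1.31 passed limma (adjusted p = 0.00463) but not without ExE replicate 2 (0.0698).

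Ptn, which encodes the heparin-binding growth factor pleiotrophin, had far less H3K4me3 in ExE, while its H3K27me3 overlapped between the tissues (chr6:36808501-36811500). H3K4me3 was 10.8, 9.33, 11.3 and 10.3 RPKM in wild-type epiblast and 2.50, 2.58, 2.00 and 3.39 RPKM in ExE (-1.82, limma adjusted p = 3.25e-15). In matDKO/CAST it was 10.8 and 8.86 RPKM in epiblast and 1.78 and 1.88 RPKM in ExE (-2.14). H3K27me3 in wild-type epiblast was 0.641, 0.550, 1.05 and 0.624 RPKM, and in wild-type ExE 0.943, 0.895, 0.902 and 0.861 RPKM. Those ranges overlapped, and the matDKO/CAST difference was 0.48 (limma adjusted p = 0.16). Sulf1, an extracellular sulfatase that edits heparan sulfate, fell from 5.32 to 10.8 RPKM in epiblast to 1.43 to 2.65 RPKM in ExE for H3K4me3 (-1.77), and its H3K27me3 in matDKO/CAST was higher by 1.11 (limma adjusted p = 0.00345, and 0.0516 without ExE replicate 2).

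Acvr2a, an activin receptor, was the only member among 21 Nodal and BMP genes and did not pass the test for H3K4me3 (-0.12, limma adjusted p = 0.665). Its H3K27me3 was 0.489 to 0.770 RPKM in wild-type epiblast and 0.317 to 0.485 RPKM in ExE, against the direction of its peak calls. Of 18 Eph and ephrin genes with an epiblast peak, which guide cell sorting, 11 had a peak with lower H3K4me3 in ExE by limma and 0 a higher one, against 17.81% lower and 3.368% higher over all 14131 genes with an epiblast peak at the start. Of the 18, 3 were members, and all 3 were among those lower. These were Epha1 (-0.41, adjusted p = 0.0438), Ephb6 (-0.48, adjusted p = 0.0172) and Efnb3, which shares its member with Dnah2 (-0.48, adjusted p = 0.0214). All 3 calls were lost without CAST/B6 epiblast replicate 2 or CAST/B6 ExE replicate 1, among others, with adjusted p up to 0.193, 0.101 and 0.0929. Of 27 semaphorin, plexin, slit and netrin genes, 15 had a lower peak and 0 a higher one, against the same shares of all genes, and 3 were members. The receptor Plxnb1 (-0.70, limma adjusted p = 0.000899) and the ligand Sema6a (-0.97, limma adjusted p = 3.12e-06) were lower in ExE, and Sema4a was not called (-0.36). Lower and higher peaks numbered 12 and 0 of 20 WNT genes, 17 and 3 of 34 epiblast genes and 5 and 0 of 18 FGF genes. They were 7 and 3 for gastrulation regulators, 3 and 1 for Polycomb genes and 1 and 0 for DNA methylation enzymes. Nodal and BMP genes had 3 and 4, and trophoblast genes 1 and 8. H3K27me3 in both tissues marked 11 of the 18 Eph and 17 of the 27 semaphorin genes, a class with 41.5% lower at protein-coding starts. These shares were not tested. None of 20 WNT genes, 20 gastrulation regulators, 16 trophoblast genes and 4 DNA methylation enzymes with an epiblast peak was a member. At lists of this size, against 7.912% of all genes, these counts are read as no result about the lists.

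Of 24 Polycomb genes, 1 was a member, Kdm2b (chr5:122983501-122999500), a share near the 7.912% of all genes. It encodes the CXXC protein that brings a variant of Polycomb repressive complex 1 to unmethylated CpG islands. H3K4me3 was 11.98, 12.5, 15.3 and 12.6 RPKM in wild-type epiblast and 6.69, 6.93, 4.69 and 6.42 RPKM in ExE (-1.03, SE 0.17, limma adjusted p = 5.16e-07). H3K27me3 was 0.305, 0.254, 0.185 and 0.143 RPKM in wild-type epiblast and 0.998, 0.527, 0.525 and 0.467 RPKM in ExE. Both marks separated the tissues in every wild-type library, in opposite directions. In matDKO/CAST, H3K27me3 was 0.295 and 0.238 RPKM in epiblast and 1.01 and 0.861 RPKM in ExE, a difference of 0.91 (limma adjusted p = 0.00982) that missed the threshold without ExE replicate 2 (0.0717).

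Among genes of the cell surface and cytoskeleton, Dbn1, which encodes the actin-binding protein drebrin, had the largest wild-type H3K27me3 difference of the members with 1 protein-coding start (chr13:55483001-55489500). H3K27me3 was 0.871, 0.465, 0.544 and 0.504 RPKM in wild-type epiblast and 2.55, 1.96, 2.60 and 2.14 RPKM in ExE. In matDKO/CAST it was 0.581 and 0.440 RPKM in epiblast and 2.297 and 1.43 RPKM in ExE (1.21, limma adjusted p = 0.00473, and 0.0613 without ExE replicate 2). H3K4me3 went from 11.5, 9.51, 11.9 and 11.2 RPKM in wild-type epiblast to 5.18, 5.30, 4.56 and 5.68 RPKM in ExE, with no overlap. St6gal1, a sialyltransferase, and Cd24a, a glycosylated surface protein, had differences of -0.83 and -1.10 for wild-type H3K4me3, and of 1.31 and 1.16 for H3K27me3 in matDKO/CAST (limma adjusted p = 0.00215 and 0.00472), and these H3K27me3 calls held with each matDKO/CAST library left out. Elavl4 and Tpbg also had large wild-type H3K27me3 differences (1.36 and 1.19), with H3K4me3 differences of -0.68 and -0.53 (limma adjusted p = 0.000933 and 0.0149, the second lost when any of 4 libraries was left out). In matDKO/CAST neither H3K4me3 difference passed (-0.49 and -0.13, limma adjusted p = 0.12 and 0.795), although Elavl4 did with the replicate number as a block (-0.39, 0.0407). Fign, Igdcc4 and Mrgprf followed, with wild-type H3K27me3 differences of 1.11, 1.11 and 1.07 and lower H3K4me3 (-0.89, -0.72 and -0.59 by limma, the last lost without B6/CAST ExE replicate 2).

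Among the largest falls of H3K4me3 were those at Cdh12, a cadherin (-2.01), Jakmip2 (-1.97), Ptn, Klk13 (-1.79), Sulf1, Mfap2, a microfibril protein (-1.75), Igfbp2, Gabrg1, a GABA receptor subunit (-1.64), and Lrrtm4, a synaptic adhesion protein (-1.62). All of these also passed limma in matDKO/CAST, with differences from -1.62 at Igfbp2 to -2.29 at Cdh12. For H3K27me3 in matDKO/CAST, Cdh12, Klk13, Sulf1, Mfap2 and Igfbp2 were higher and the other genes named here did not pass. Each of these 5 H3K27me3 calls was lost with at least 1 matDKO/CAST library left out. With the replicate number as a block, Cdh12 lost its call (0.71, limma adjusted p = 0.0843) and Gabrg1 gained one (0.78, limma adjusted p = 0.0359).

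Rises of H3K4me3 were fewer and smaller. Fbxl2, an F-box protein of ubiquitin ligases, had 0.988, 0.955, 0.278 and 0.523 RPKM in wild-type epiblast and 4.11, 3.27, 2.25 and 2.72 RPKM in ExE (chr9:114045001-114048000). That difference was 1.62 (limma adjusted p = 1.85e-11), and in matDKO/CAST 0.96 (0.00344, and 0.0669 without ExE replicate 3). Its H3K27me3 overlapped between the tissues, at 0.493 to 0.686 RPKM in wild-type epiblast and 0.505 to 0.951 RPKM in ExE. The next were Foxr1 and Sh2d3c (both 1.12), Gm20219 (0.98), Pstpip1 (0.95), the nucleoside transporter Slc28a2 (0.94), Selenbp1 (0.87), the natriuretic peptide gene Nppb (0.86), Mcmdc2 (0.85) and the carotenoid oxygenase Bco1 (0.85). All but Mcmdc2, at 3.31 to 5.31 RPKM, had 2.39 RPKM or less in every wild-type epiblast library. In matDKO/CAST, Pstpip1, Slc28a2, Nppb and Bco1 did not pass limma (adjusted p = 0.313, 0.657, 0.218 and 0.227), although Bco1 did with the replicate number as a block (1.26, 0.00297). Foxr1, Sh2d3c, Gm20219, Selenbp1 and Mcmdc2 did, but all of these except Sh2d3c lost that call with a matDKO/CAST library left out, and Gm20219 also with the block (0.20, 0.729).

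The members with the highest epiblast H3K4me3 differed little between the tissues in wild-type H3K4me3, with the exceptions given here. Wild-type H3K36me3 over the gene was higher in ExE by limma at Psmd11 (0.53), Pcf11 (0.50), Cep350 (0.45), Usp36 (0.35), Prpf8 (0.33) and Timm22 (0.29), and lower at Rims2 (-0.20). After quantile normalization the sign reversed at Usp36, Prpf8 and Timm22, and Timm22 lost its call with the replicate number as a block. At Prpf8, a core spliceosome protein, H3K4me3 was 27.1, 18.9, 34.1 and 27.9 RPKM in wild-type epiblast and 22.9, 22.8, 29.2 and 32.3 RPKM in ExE (0.01, limma adjusted p = 0.988). H3K27me3 was 0.338, 0.377, 0.270 and 0.321 RPKM in epiblast and 0.364, 0.374, 0.299 and 0.330 RPKM in ExE, below the wild-type input medians of 0.465 to 0.537 RPKM over members. Psmd11, Timm22, Pcf11, Tfap4, Cep350, Usp36 and Slain2 were alike in H3K4me3, with wild-type differences from -0.23 at Slain2 to 0.13 at Cep350, none called by limma. At Psmd11, wild-type H3K27me3 was 0.241 to 0.423 RPKM in epiblast and 0.427 to 0.543 RPKM in ExE. In matDKO/CAST, Usp36 was higher in H3K27me3, with 0.123 and 0 RPKM in epiblast and 0.437 and 0.364 RPKM in ExE (0.69, limma adjusted p = 0.024, lost without epiblast replicate 2 or ExE replicate 2), and Prpf8 and the other 6 did not pass. Rims2 and Adgrl2, both with roles at synapses, had larger wild-type H3K27me3 differences (0.58 and 0.54), and Rims2 was lower in H3K4me3 (-0.51, limma adjusted p = 0.0265, and up to 0.17 with a library left out). In matDKO/CAST, Rims2 was higher in H3K27me3 (0.80, limma adjusted p = 0.0198, lost without epiblast replicate 2 or either ExE library) and Adgrl2 was not called (0.08). With the replicate number as a block, Adgrl2 was lower in wild-type H3K4me3 (-0.48, limma adjusted p = 0.00602).

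**Figure D3:**
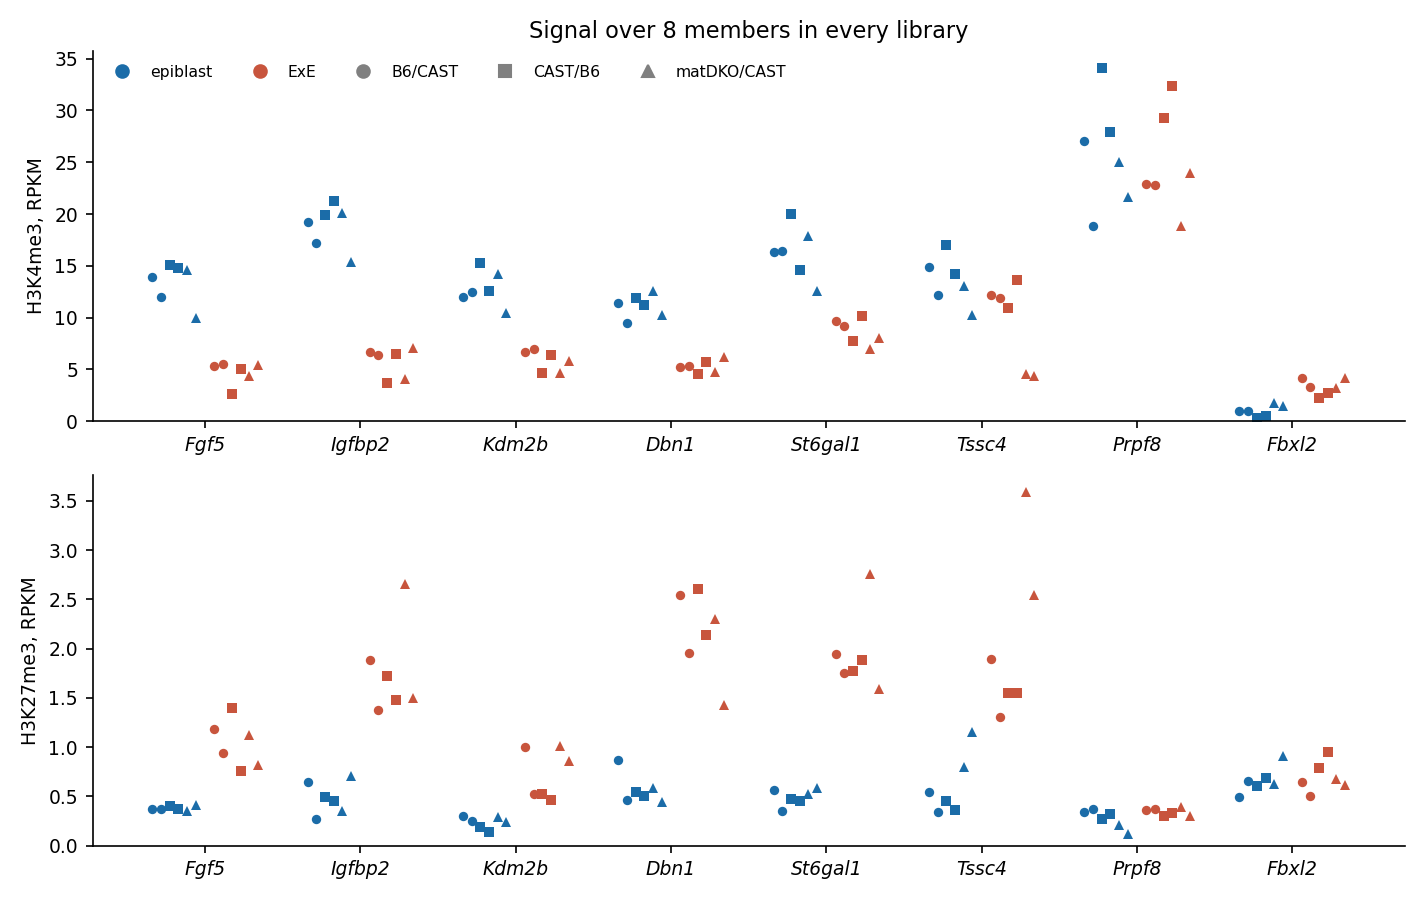
H3K4me3 (top) and H3K27me3 (bottom) in RPKM over 8 members (x axis), with 1 point per library, colour for tissue and marker shape for cross. Fgf5, Igfbp2, Kdm2b, Dbn1 and St6gal1 were lower in H3K4me3 and higher in H3K27me3 in every ExE library, Prpf8 overlapped in H3K4me3, and Fbxl2 rose from 0.278 to 0.988 RPKM to 2.25 to 4.11 RPKM in the wild type.

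H3K36me3 was measured over the bodies of the 1118 member genes, in chromatin from the same collections as the other marks. In the wild type, 132 genes (11.81%) were lower in ExE by limma, against 6.13% of all 20807 genes, and 327 (29.25%) were higher, against 30.3%. The median was 0.11 over member genes and 0.10 over all genes. These counts moved with the scaling, to 196 lower and 197 higher with equal library medians (17.53% and 17.62%, against 11.23% and 21.2% of all genes). They were 199 and 32 after quantile normalization (17.8% and 2.862%, against 6.733% and 4.806%) and 297 and 189 by edgeR (26.57% and 16.91%, against 20.61% and 20.72%). They were 82 and 194 without B6/CAST ExE replicate 1 or 84 and 205 without CAST/B6 ExE replicate 2. Without CAST/B6 epiblast replicate 2, 212 were higher. In matDKO/CAST, 31 (2.773%) were lower, against 1.73% of all genes, and 101 (9.034%) higher, against 11.4%, and 0 of either passed without epiblast replicate 2. The tissue difference of H3K36me3 differed between the genotypes at 0 member genes by limma and by edgeR (0.00481% of all genes by limma), with 81 at an unadjusted p under 0.05.

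Lower H3K36me3 was more frequent among genes with lower H3K4me3, a difference in shares that was not tested. Of 251 genes whose member was lower in H3K4me3 in ExE, 95 (37.85%) were lower in H3K36me3 and 5 (1.992%) higher, with a median of -0.15. Of 836 genes whose member was not called for H3K4me3, 37 (4.426%) were lower and 314 (37.56%) higher, with a median of 0.19. Of 31 genes whose member was higher in H3K4me3, 0 were lower in H3K36me3 and 8 (25.81%) higher, with a median of 0.14. The largest falls were at Fgf5, Pmaip1, a BH3-only protein of apoptosis (-0.995), Cd24a (-0.85), Rragd, a Rag GTPase of amino acid signalling (-0.80), and Igfbp2 (-0.77). Over Fgf5, H3K36me3 was 2.91, 2.13, 1.74 and 2.00 RPKM in wild-type epiblast and 0.745, 1.03, 0.495 and 0.476 RPKM in ExE (-1.19, limma adjusted p = 0.00114). St6gal1 (-0.48, limma adjusted p = 0.000902), Sulf1 (-0.73, 0.000653) and Kdm2b (-0.30, 0.00479) were also lower, whereas Dbn1 did not pass (-0.28, 0.059). The largest rises were at Jade1, a scaffold of the HBO1 acetyltransferase (0.82), Ccdc32 (0.82), BC031181 (0.74), the Mediator subunit Med7 (0.66) and the lysosomal protease Ctsd (0.62). Their wild-type H3K27me3 differences were -0.29, -0.13, -0.09, -0.11 and 0.17 in this order, so only Ctsd went with its peak calls. In matDKO/CAST, Jade1 (0.52, limma adjusted p = 0.0294) and Ccdc32 (0.74, 0.0288) passed for H3K36me3, but not without epiblast replicate 2. BC031181 (0.23, limma adjusted p = 0.34), Med7 (0.23, 0.416) and Ctsd (-0.08, 0.872) did not pass there. None of these 5 was called for H3K4me3 in the wild type, though Jade1 (0.34) and Ctsd (0.29) were with the replicate number as a block (limma adjusted p = 0.00139 and 0.0252). After quantile normalization BC031181, Med7 and Ctsd lost their call, Ctsd also with any of 6 libraries left out (adjusted p up to 0.129) and with the block (0.62, limma adjusted p = 0.0552).

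**Figure D4:**
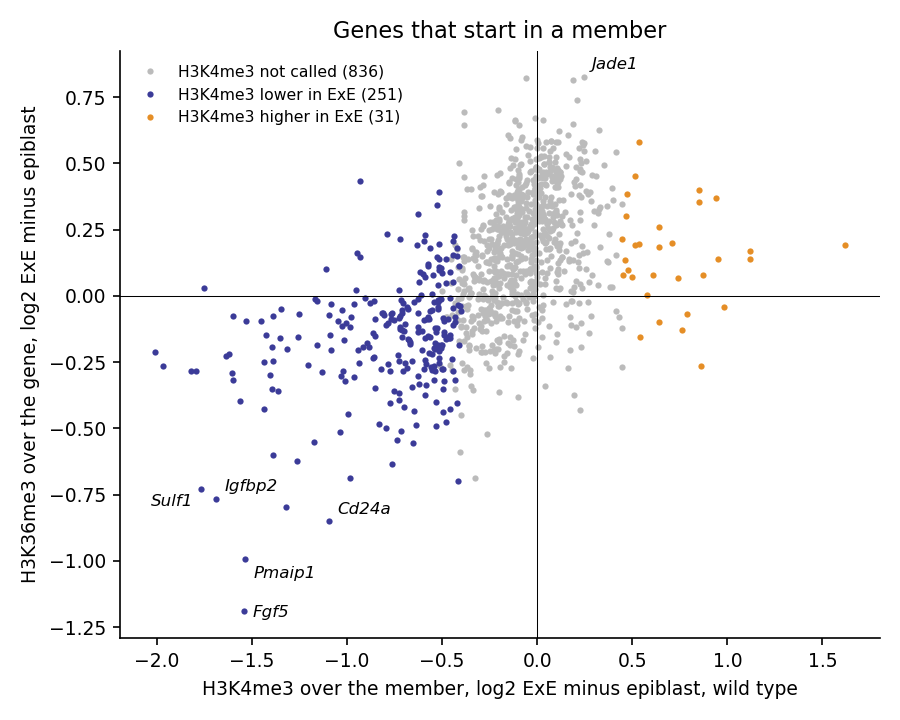
Wild-type log2 difference (ExE minus epiblast) of H3K36me3 over the gene (y axis) against that of H3K4me3 over its member (x axis), with 1 point per member gene, coloured by the limma call for H3K4me3. Of the 251 genes lower in H3K4me3, 95 were also lower in H3K36me3, with Fgf5 the lowest of the labelled genes.

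Reads that cover B6 and CAST variants divide the signal by parent. A region was taken as imprinted where edgeR found the same parent higher in both wild-type crosses, and as strain-specific where it found the same strain higher. In epiblast, 2421 members were informative for H3K4me3, and 2 of them (0.08261%) were imprinted, both paternal, while 41 (1.694%) were strain-specific, 25 with B6 higher. Of all 20328 informative peaks, 0.108% were imprinted and 0.841% strain-specific. With the library as a block, these were 4 and 100. The strain-specific count was 13 by DESeq2 and 224 in a fit with terms for cross, strain and parent. Libraries were left out in 1 fit of both crosses with a mean per cross and parent, which with all libraries gave 2 imprinted and 43 strain-specific members, an alternative added after the data were seen. In that fit the strain-specific count was 15 without B6/CAST replicate 1, 27 without B6/CAST replicate 2, 0 without CAST/B6 replicate 2 and 14 without CAST/B6 replicate 3. In ExE, 11 of 2267 informative H3K4me3 peaks over members were imprinted (0.4852%, 6 maternal and 5 paternal) and 145 strain-specific (6.396%), against 0.319% and 3.96% of all 23211. DESeq2 gave 4 and 21, and the fit with cross, strain and parent terms 20 and 561. The fit of both crosses gave 11 and 169 with all libraries. With 1 library left out of it, 6 to 10 were imprinted, with 7 without B6/CAST replicate 1 and 6 without either CAST/B6 library. Strain-specific peaks then numbered 40 to 103, with 65 without B6/CAST replicate 1, 103 without B6/CAST replicate 2, 68 without CAST/B6 replicate 1 and 40 without CAST/B6 replicate 2. ExE H3K27me3 was imprinted at 109 of 3410 regions over members (3.196%, against 1.35% of all 18592 regions), 93 of them paternal, and strain-specific at 206 (6.041%, against 4.32%). DESeq2 gave 51 and 34, the fit with cross, strain and parent terms 375 and 927, and the fit of both crosses 109 and 213 with all libraries. With 1 library left out of the last, 59 to 94 were imprinted, with 59 without B6/CAST replicate 1, 71 without B6/CAST replicate 2 and 72 without CAST/B6 replicate 1. Strain-specific regions then numbered 56 to 143, with 56 without B6/CAST replicate 1, 88 without B6/CAST replicate 2 and 94 without CAST/B6 replicate 1. The 109 imprinted regions held 186 members. Chromosome 17 had 42 of the 109, 31 in its first 24 Mb, and chromosome 7 had 24, 10 of them in its distal part around Kcnq1. Without both chromosomes, 43 of 3014 regions over members (1.427%) were imprinted, against 104 of all 16614 (0.626%), a difference that was not tested.

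The Kcnq1ot1 promoter, the start of a paternally expressed long non-coding RNA inside Kcnq1, lay in the member with the widest allelic contrast (chr7:143286001-143298000). In wild-type epiblast, paternal H3K4me3 reads numbered 507, 336, 564 and 130 and maternal reads 10, 13, 16 and 1, so that 1.93%, 3.72%, 2.76% and 0.763% were maternal. For B6/CAST the log2 ratio of maternal to paternal reads was -5.22 (edgeR adjusted p = 3.6e-06), and for CAST/B6 it was -5.28 (edgeR adjusted p = 8.51e-11). In wild-type ExE the maternal share was 2.96%, 2.69%, 3.09% and 1.75%. In matDKO/CAST it was 47.7% and 45.4% in epiblast and 47.1% and 51.8% in ExE, so the libraries separated by genotype at this germline differentially methylated region, which serves as a check of the matDKO labels. The other imprinted epiblast member, chr7:60242501-60246000, had 85, 99, 163 and 25 paternal against 27, 31, 31 and 8 maternal reads in the wild type, and 62 and 21 against 65 and 23 in matDKO/CAST. Its edgeR call was lost without B6/CAST replicate 1, B6/CAST replicate 2 or CAST/B6 replicate 2.

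Tssc4, in the same cluster, encodes a protein of spliceosome assembly and lay under a broad ExE H3K27me3 region (chr7:143067501-143071500, region chr7:142781501-143250000). Maternal reads made up 80.5%, 72.9%, 72.9% and 73.9% of H3K4me3 in wild-type ExE (edgeR adjusted p = 5.96e-09 and 1.2e-09) and 22.4%, 22.3%, 22.0% and 23.6% of H3K27me3 over the region. In matDKO/CAST these shares were 58.5% and 45.9%, and 49.9% and 49.5%. Total H3K4me3 was 14.9, 12.2, 16.98 and 14.2 RPKM in wild-type epiblast and 12.2, 11.9, 10.9 and 13.7 RPKM in ExE (-0.24, limma adjusted p = 0.274). In matDKO/CAST it was 13.1 and 10.2 RPKM in epiblast and 4.53 and 4.36 RPKM in ExE (-1.29, limma adjusted p = 1.54e-05), and the difference between genotypes of -1.04 did not pass (limma adjusted p = 0.308). H3K27me3 was 0.546, 0.344, 0.455 and 0.363 RPKM in wild-type epiblast and 1.90, 1.31, 1.55 and 1.55 RPKM in ExE, and 0.800 and 1.16 against 3.58 and 2.55 RPKM in matDKO/CAST (1.27, limma adjusted p = 0.00273, a call kept without each library).

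Other regions with a parental bias of H3K27me3 were also broad. Over chr17:8719501-9347000, with Pde10a and 1700010I14Rik, B6/CAST had a log2 ratio of maternal to paternal reads of -2.54 and CAST/B6 of -2.42. Over chr17:4348501-5146000, with Arid1b, it was -2.11 and -2.35, and over chr7:143864001-144350000, with Shank2, -1.50 and -1.54. These regions and the Tssc4 region kept their edgeR calls under every alternative run. Agreement of matDKO/CAST with the wild type was counted by sign alone, without a test, and not over all imprinted regions. Of the 109 imprinted H3K27me3 regions, both matDKO/CAST libraries had the same parent higher in 43. Of the 11 ExE H3K4me3 peaks, 6 did, among them Jade1, whose maternal share was 35.3%, 37.2%, 22.2% and 23.9% in the wild type and 38.7% and 29.1% in matDKO/CAST. At Galnt6 the maternal share was 8.96%, 9.91%, 24% and 12.5% in the wild type and 25.4% and 3.51% in matDKO/CAST, but the call was lost by DESeq2 and without either CAST/B6 library. At Arid1b it was 63.1%, 55.4%, 59.2% and 62.6%, and 53.3% and 48.2%, a call also lost by DESeq2. Among strain-specific members, Chrna1, an acetylcholine receptor subunit, had 186 and 145 maternal (B6) against 20 and 24 paternal epiblast H3K4me3 reads in B6/CAST, and 147 and 37 paternal (B6) against 8 and 4 maternal reads in CAST/B6 (edgeR adjusted p = 0.000242 and 9.89e-07). Its call was lost without CAST/B6 replicate 2.

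**Figure D5:**
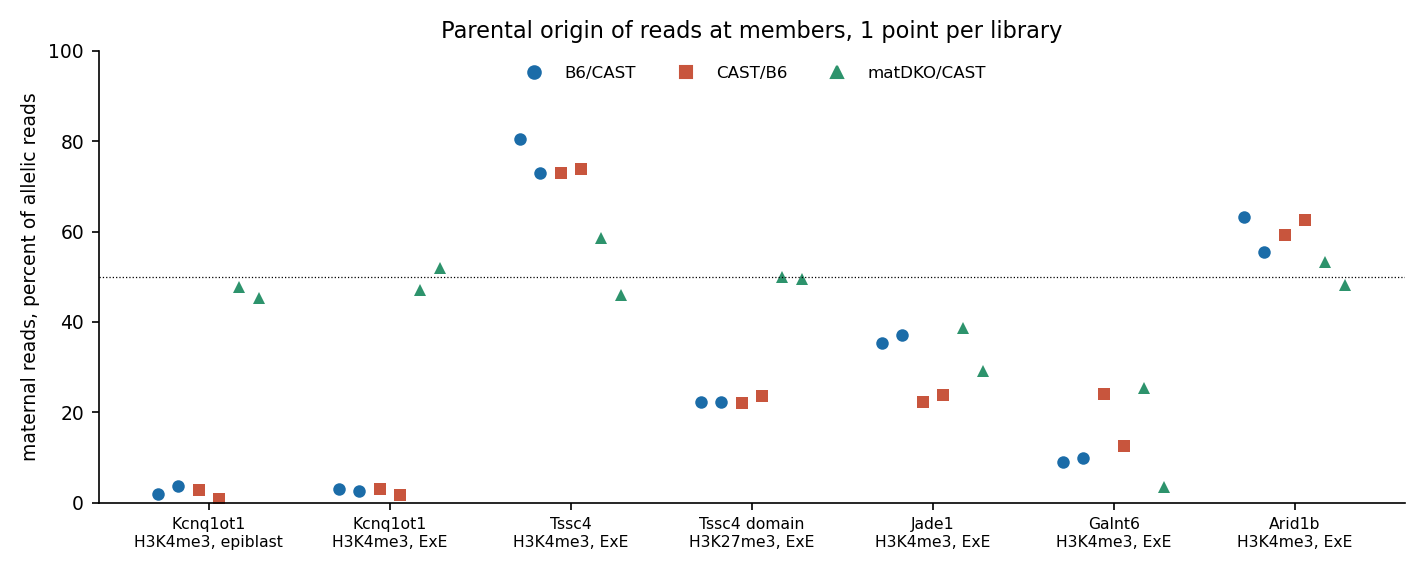
Maternal reads as a percent of allelic reads (y axis, dotted line at an equal share) for H3K4me3 or H3K27me3 at members (x axis), with 1 point per library and marker shape and colour for cross. At Kcnq1ot1 the wild-type libraries had at most 3.72% maternal H3K4me3 reads, and the matDKO/CAST libraries 45.4% to 51.8%.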

How the data were processed

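The 36 ChIP libraries (3 marks, 3 crosses, 2 tissues, 2 libraries each) and 15 inputs were those of the submitters, who, by their processing notes, trimmed with Trim Galore 0.4.4 and mapped with Bowtie2 2.3.2 to GRCm38. The authors deposited RPKM over consecutive 1 kb windows, H3K27me3 and H3K4me3 peaks called on pooled replicates in 500 bp steps, and unnormalized counts of maternal and paternal reads per peak. The deposited RPKM steps gave whole reads for 100% of values in every library (tolerance 0.1 read), which were used for edgeR as an alternative. Signal per peak or gene was the mean RPKM of the windows it overlapped, weighted by overlap. Tissue differences were tested with limma 3.58.1 on log2(RPKM + 0.5) with 1 mean per group over 12 libraries per mark, and Benjamini-Hochberg adjusted over 33329 peaks or 20807 genes (threshold 0.05). Because of the 0.5, fold changes of low features are understated. Peaks with at least 20 reads in 1 allele column of a wild-type library were tested with the edgeR 4.0.16 quasi-likelihood test between parents within each cross. Gene starts came from GENCODE vM21. Named genes were the largest differences and highest levels among members with 1 protein-coding start, all members of the gene lists, and the deepest allelic calls; others were chosen after their values were seen, and some that the rule names are not reported here. Members, lists and tests were chosen with earlier results of these data known. The scripts were tested on simulated data. Same-numbered libraries of the tissues deviated together in the 3 wild-type H3K4me3 pairs (correlations 0.242 to 0.411) but not throughout the other marks (-0.148 to 0.169 elsewhere), and the block is given where it changes a call or, by over 1.5 times, a count of the text. Of the inputs, 2 matDKO/CAST ones carry a wild-type strain label and were grouped by title. Alternatives covered the pseudocount, filters, scaling, input, the tool, the block and left-out libraries.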

Additional observations from a re-analysis of the deposited data

Results flagged for a closer look

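The H3K4me3 tissue difference differed between matDKO/CAST and wild type at 2 members, by the limma contrast of the genotypes over all 33329 peaks. At chr13:76345001-76347000, outside genes, the difference between genotypes was -2.08 (SE 0.37, limma adjusted p = 0.00412). Its H3K4me3 was 1.59 and 1.57 RPKM in B6/CAST epiblast, 0.721 and 1.68 RPKM in CAST/B6 epiblast, 2.15 and 1.21 RPKM in B6/CAST ExE and 1.44 and 2.36 RPKM in CAST/B6 ExE. In matDKO/CAST it was 3.08 and 2.62 RPKM in epiblast and 1.14 and 0.0593 RPKM in ExE, so that both ExE values lay below both epiblast values while the wild-type tissues overlapped. Without matDKO/CAST ExE replicate 3 the difference was -1.31 and missed the threshold. At chr10:126809001-126811000, which holds a transcript start, the difference was -1.69 (SE 0.33, limma adjusted p = 0.0194). The matDKO/CAST epiblast libraries had 5.99 and 4.99 RPKM and the matDKO/CAST ExE libraries 1.67 and 1.31 RPKM, whereas the 8 wild-type libraries ranged from 0.719 to 1.64 RPKM. Both calls were lost with a pseudocount of 0.1, after quantile normalization and by edgeR, and the chr10 call also with equal library medians or with any of 5 libraries left out.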

How the results depend on the processing

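The number of members was 7189 when an ExE H3K27me3 peak in at least 1 cross sufficed. For peaks or genes with a mean of at least 1 RPKM, 768 members were lower in H3K4me3 in the wild type and 668 in matDKO/CAST, 255 were higher and 2 lower in H3K27me3 in matDKO/CAST, and for H3K36me3 16 (wild type) and 11 (matDKO/CAST) were lower. That filter took members out before the test, so these counts rest on fewer members and cannot be set against the main counts as shares. The shares of all peaks or genes under it are not given here. At protein-coding starts alone, the counts lower and higher were 237 and 31 for wild-type H3K4me3, 172 and 10 in matDKO/CAST, and 1 and 98 for H3K27me3. Equal library medians gave 999 and 295 for matDKO/CAST H3K4me3, 14 and 399 for H3K27me3, 197 higher for wild-type H3K36me3 and 49 in matDKO/CAST. Quantile normalization gave 694 higher for wild-type H3K4me3, 691 and 386 in matDKO/CAST, 34 lower for H3K27me3, 199 and 32 for wild-type H3K36me3, and 56 and 11 in matDKO/CAST. edgeR on recovered reads gave 903 and 452 for matDKO/CAST H3K4me3, 17 and 400 for H3K27me3, 297 and 189 for wild-type H3K36me3, and 106 and 41 in matDKO/CAST. Subtracting the input gave 11 lower for H3K27me3 and 50 lower for matDKO/CAST H3K36me3. The matDKO/CAST libraries alone gave 1 and 258 for H3K27me3, and 0 and 0 for H3K36me3. The difference of H3K4me3 between genotypes was called at 0 members with a pseudocount of 0.1, 1 with equal medians, 1 after quantile normalization, 0 by edgeR and 5 with input subtracted.

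With the replicate number as a block, H3K27me3 in matDKO/CAST was higher at 1369 members and lower at 13, and no other count of the tissue tests moved by over 1.5 times. Deviations of same-numbered libraries of the tissues correlated at 0.242 to 0.411 in the 3 wild-type H3K4me3 pairs and from -0.148 to 0.169 elsewhere. With the library as a block, allelic epiblast H3K4me3 gave 4 imprinted and 100 strain-specific members. DESeq2 gave 13 strain-specific in epiblast, 4 imprinted and 21 strain-specific in ExE H3K4me3, and 51 and 34 in ExE H3K27me3. Without the read minimum 66 epiblast members were strain-specific. A fit with terms for cross, strain and parent gave 224 strain-specific in epiblast, 20 imprinted and 561 strain-specific in ExE H3K4me3, and 375 and 927 in ExE H3K27me3.

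With 1 library left out at a time, members lower and higher ranged from 1157 to 1623 and 259 to 421 for wild-type H3K4me3, from 1065 to 1130 and 98 to 127 in matDKO/CAST, from 5 to 14 and 100 to 872 for H3K27me3, from 82 to 112 and 194 to 322 for wild-type H3K36me3, and from 0 to 18 and 0 to 71 in matDKO/CAST. Where a group kept 1 library, it was assumed to vary like the others. The genotype difference was called at 1 to 12. In 1 fit of both crosses, with 2 and 43 in epiblast, 11 and 169 for ExE H3K4me3 and 109 and 213 for ExE H3K27me3 with all libraries, imprinted and strain-specific counts ranged from 1 to 2 and 0 to 27 in epiblast, 6 to 10 and 40 to 103 for ExE H3K4me3, and 59 to 94 and 56 to 143 for ExE H3K27me3. For named genes, 3864 of the values kept direction and side of the threshold, 322 lost and 102 gained a call, and 247 values without a call moved. After quantile normalization, H3K36me3 reversed at Fbxl2 (-0.0547), Timm22 (-0.0302), Prpf8 (-0.0527) and Usp36 (-0.0218) in the wild type and at Cep350 (-0.0172) in matDKO/CAST. Apart from fewer features or libraries, the cause was not tested. With 2 pools per group, a difference that missed the threshold is not shown to be absent.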

Other observations

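The share of epiblast H3K4me3 peaks with ExE-only H3K27me3 ranged from 10.99% on chromosome 3 (174 of 1583) to 18.41% on chromosome 17 (282 of 1532), the chromosome that also held 42 of the 109 imprinted H3K27me3 regions over members. By symbol, 34 of 336 Zfp genes with an epiblast peak at the start (10.12%) started in a member, as did 25 of 277 Slc genes (9.025%), 7 of 47 Trim genes (14.89%), 6 of 48 Arhg genes (12.5%), 3 of 73 Kcn genes (4.11%) and 1 of 49 Pcdh genes (2.041%), against 1118 of 14131 of all genes with such a peak (7.912%). These families were chosen after the members were known and were not tested.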
